A study of Homo sapiens with 24 samples.

Results

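Homologous recombination and Fanconi repair genes were followed through 24 expression arrays of 2 acute myeloid leukemia lines treated with a kinase inhibitor, a histone deacetylase inhibitor or both. The list held 46 genes, taken from general knowledge of the pathways, and 42 of them had at least 1 probe set annotated to them alone, among 19775 genes with such a probe set. BRCA2, FANCA, FANCD2 and RBBP8 were not analysed here. Each gene was represented by the probe set with the highest mean log2 signal over the 24 arrays, chosen from 91 probe sets.

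The cells were MOLM-14 and MV4-11, both of monocytic (M5) origin and both with the internal tandem duplication of the receptor FLT3 (FLT3-ITD). MOLM-14 keeps a wild-type allele beside the mutated one and MV4-11 expresses the mutated allele alone. Each line was given the combination of ABT-869 and SAHA, SAHA, ABT-869 or the solvent DMSO for 24 hours, with 3 biological replicates per group. ABT-869 inhibits FLT3 and related receptor tyrosine kinases and was used at 3 nM, and SAHA inhibits histone deacetylases and was used at 6 µM. Whether the same doses were used together is not stated in the sources used here. 

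Homologous recombination repairs a double-strand break by copying the sister chromatid, and is therefore tied to S and G2 phase. Broken ends are resected to single strands, that strand is paired with the intact copy, and the joined molecules are then resolved. The Fanconi pathway unhooks crosslinks between the strands at stalled forks and hands the resulting break to recombination. Many of these genes are transcribed with the cell cycle through E2F factors and the DREAM complex, which act at promoters through E2F sites and the CHR element.

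Promoter sequences of 38 of the 42 genes were available, each running from 250 bases before to 50 bases after the start in RefSeq (GRCh38.p14). Those of 4 genes are printed as examples and do not stand for the whole list. MND1 had the largest fall in MV4-11, EXO1 and BRIP1 fell further in MOLM-14 than in MV4-11, and FANCF was higher in both lines. Capitals mark matches on either strand to the E2F words (TTTGGCGC, TTTCGCGC, TTTGCCGC or TTTCCCGC), the CHR word (TTTGAA) and the CCAAT box (CCAAT). The regions were chr4:153344438-153344737 (plus strand) for MND1, chr1:241847954-241848253 (plus) for EXO1, chr17:61863479-61863778 (minus) for BRIP1 and chr11:22625774-22626073 (minus) for FANCF.
MND1: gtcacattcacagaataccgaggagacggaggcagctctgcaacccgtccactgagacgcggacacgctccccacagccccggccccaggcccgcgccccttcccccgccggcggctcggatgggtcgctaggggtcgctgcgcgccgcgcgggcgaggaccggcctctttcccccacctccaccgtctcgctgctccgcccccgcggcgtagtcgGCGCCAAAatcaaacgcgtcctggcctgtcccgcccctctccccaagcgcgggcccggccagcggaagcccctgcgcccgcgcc
EXO1: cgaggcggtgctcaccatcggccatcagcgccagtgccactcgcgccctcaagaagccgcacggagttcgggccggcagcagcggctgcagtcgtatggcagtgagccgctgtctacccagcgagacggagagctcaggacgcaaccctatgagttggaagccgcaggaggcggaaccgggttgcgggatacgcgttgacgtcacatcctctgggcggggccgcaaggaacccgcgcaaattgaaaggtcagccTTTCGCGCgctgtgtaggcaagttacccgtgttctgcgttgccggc
BRIP1: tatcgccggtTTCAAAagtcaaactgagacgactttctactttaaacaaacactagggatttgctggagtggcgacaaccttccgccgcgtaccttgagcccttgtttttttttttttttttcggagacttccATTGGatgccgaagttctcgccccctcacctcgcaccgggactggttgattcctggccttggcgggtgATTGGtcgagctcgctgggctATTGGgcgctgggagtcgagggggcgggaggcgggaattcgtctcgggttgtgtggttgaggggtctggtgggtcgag
FANCF: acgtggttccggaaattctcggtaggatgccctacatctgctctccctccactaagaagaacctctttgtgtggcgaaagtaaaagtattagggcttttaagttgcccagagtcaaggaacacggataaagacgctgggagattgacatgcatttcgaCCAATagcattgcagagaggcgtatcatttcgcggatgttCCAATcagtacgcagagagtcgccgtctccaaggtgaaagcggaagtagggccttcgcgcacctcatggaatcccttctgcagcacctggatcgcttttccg

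An E2F word began 34 bases before the start in MND1 and 4 bases after it in EXO1. BRIP1 held 3 CCAAT boxes and 1 CHR word, and FANCF held 2 CCAAT boxes. Of the 38 promoters, 5 (13.2%) held an E2F word, against 3.33% of 27305 promoters in the same table. The CHR word was found in 13.2% of the 38 against 15.4% of all, and the CCAAT box in 42.1% against 35.7%. Among the 18 with a promoter that fell with the combination in MOLM-14, 3 (16.7%) held an E2F word, and among the 20 others 2 (10.0%) did. RAD54L, XRCC3 and CHEK1, which also fell in MOLM-14 and are not printed, held neither an E2F nor a CHR word. The motif matches are a description of the letters and were not tested.

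The values were linear array signals, scaled by the authors to a common mean per array. The median signal was 61.3 to 99.6 per array, and 30.3% of all signals lay below 32, where differences between low values are imprecise. Among the 42 genes, the RAD52 probe set alone had a mean below the median of all probe sets. Arrays of 1 group deviated by over 0.3 (SD of log2 signals) for MOLM-14 combination replicate 1 and DMSO replicate 3 and for MV4-11 combination replicates 2 and 3 and ABT-869 replicate 2. PTPRC, the leukocyte antigen CD45, had signals of 4197 to 7345, and the myeloid factor CEBPA had 14632 to 24641, while the epithelial marker EPCAM was below 32 on 21 of 24 arrays. Summed signals of the 8 myeloid markers ran from 54867 to 55509 with the combination and from 51675 to 53062 with DMSO in MOLM-14. In MV4-11 they ran from 61204 to 65701 with the combination and from 57452 to 60654 with DMSO. Those of 8 markers of other lineages were 5526 to 6064 with the combination and 5233 to 5938 with DMSO in MOLM-14, and 2984 to 3867 with the combination and 4913 to 5386 with DMSO in MV4-11. No measured marker was at 0 on any array, and KRT18, a keratin, had 487.9 to 1025. PECAM1, a marker of endothelium that myeloid cells also carry, fell by 0.65 with the combination in MV4-11, and the part of such shifts in the results was not tested. Log2 signals were compared with limma, 1 fit per line over its 12 arrays, and a gene was called at a Benjamini-Hochberg adjusted p under 0.05 over all 54613 probe sets.

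The combination lowered repair genes in both lines. In MOLM-14, 21 of the 42 genes were lower and 1 was higher with the combination than with DMSO, where 4.18% of all genes were lower and 4.72% were higher. Among the genes above the median signal, 6.79% were lower. The median change of the 42 genes was -0.66 on the log2 scale, against 0.00 over all genes. In MV4-11, 13 of the 42 were lower and 3 were higher, where 5.82% of all genes were lower and 7.1% were higher, and 9.01% of the genes above the median signal were lower. The median change there was -0.31, against -0.05 over all genes. Of the 42, 11 were lower in both lines, 10 in MOLM-14 and not called in MV4-11, and 2 in MV4-11 and not called in MOLM-14. FANCF was higher in both, ATR and RAD51B were higher in MV4-11 and not called in MOLM-14, and 16 were called in neither line. In these bulk samples a lower share of cycling cells and less RNA per cell cannot be told apart.

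**Figure D1:**
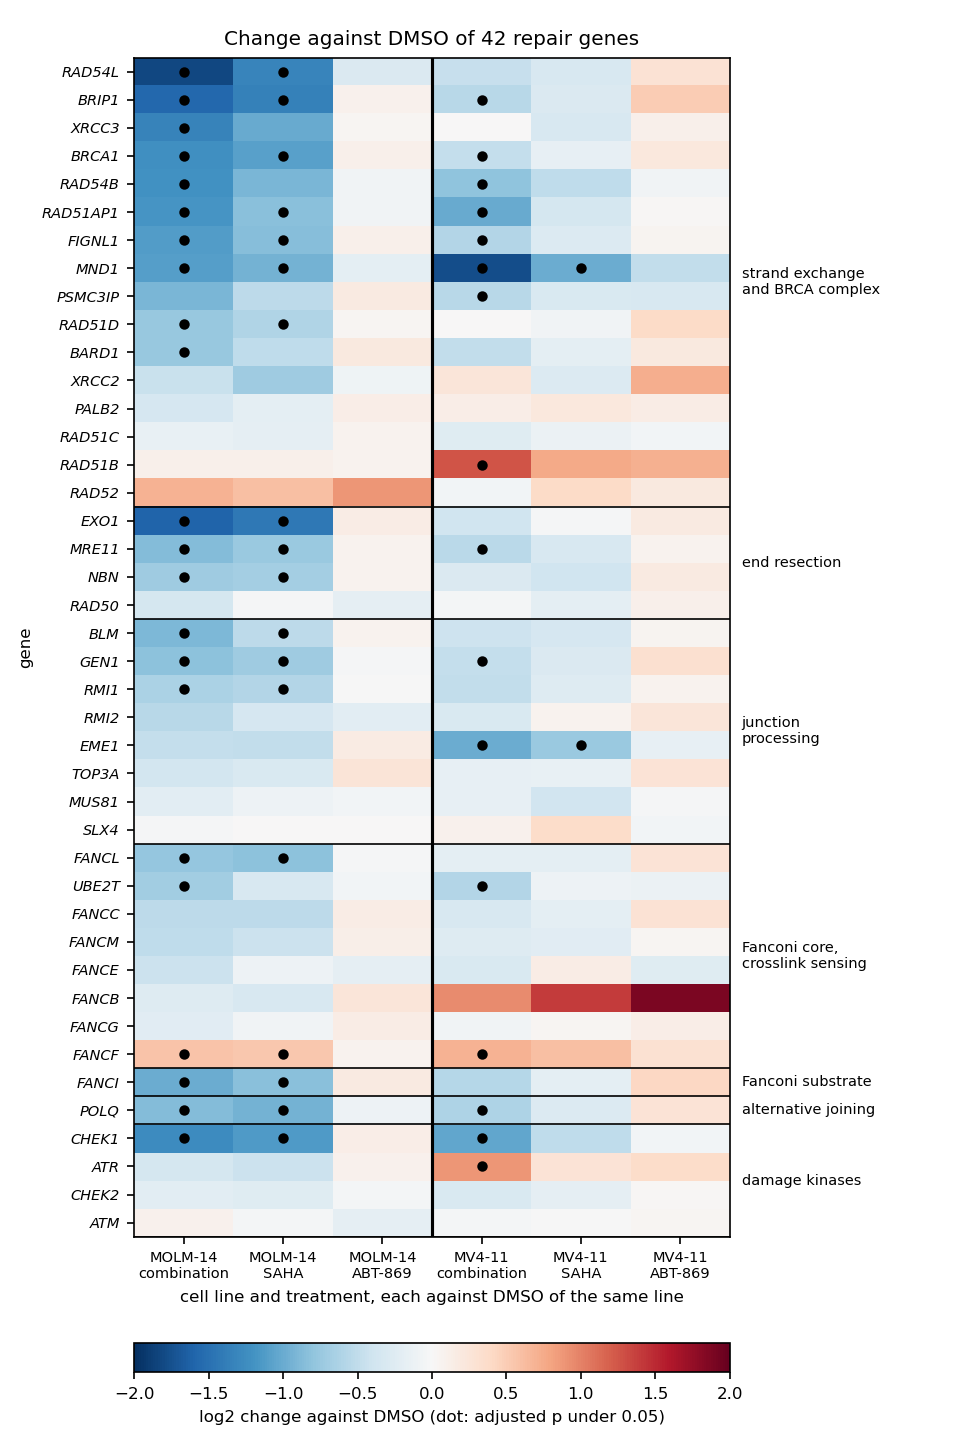
Log2 change of 42 repair genes (rows, grouped by role) with the combination, SAHA and ABT-869, each against DMSO of the same line (columns, colour scale from -2 to 2, n = 3 arrays per group). Dots mark an adjusted p under 0.05. With the combination 22 genes carry a dot in MOLM-14 and 16 in MV4-11, and with ABT-869 alone none does in either line.

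The count in MOLM-14 was 14 without DMSO replicate 1 and 15 to 23 without any other single array. Of its 22 calls, 14 held without any 1 array. BRCA1, XRCC3, FANCL, RMI1, UBE2T and GEN1 lost the call without DMSO replicate 1 or 2 or combination replicate 2 or 3, RAD54B also without DMSO replicate 3, and FANCF without DMSO replicate 1, with adjusted p up to 0.101. In MV4-11 the calls rested more on single arrays. Its count was 7 without DMSO replicate 1, 2 or 3, and 6, 8 and 9 without combination replicates 1, 2 and 3. It was 6 with arrays centred on their medians and 2 without the 5 arrays that deviated most. The calls of MND1, CHEK1, RAD51AP1, EME1 and ATR held without any 1 array. GEN1, MRE11, RAD51B and FANCF lost theirs in 11 of 12 such fits, BRIP1 in 10, BRCA1 in 7, PSMC3IP and POLQ in 5, FIGNL1 and UBE2T in 4 and RAD54B in 2 (without DMSO replicate 3 or combination replicate 1), with adjusted p up to 0.125. With the mean of all probe sets of a gene, NBN, MRE11, POLQ and GEN1 lost the call in MOLM-14, and MRE11, POLQ, GEN1, PSMC3IP, ATR, FANCF and RAD51B lost it in MV4-11.

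Strand exchange genes act where the single strand is paired with the duplex that is to be copied. Of the 16 measured, 10 were lower in MOLM-14 with the combination (median change -1.003), and in MV4-11 7 were lower and 1 was higher (median -0.46). Over all genes 4.18% were lower in MOLM-14, and 5.82% were lower and 7.1% higher in MV4-11.

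RAD54L, a motor protein that drives strand exchange, fell most in MOLM-14. Its signals were 252.2, 295.1 and 223.0 with the combination, against 1151, 838.0 and 761.8 with DMSO. The arrays did not overlap, and the change was -1.82 ± 0.17 (SE, adjusted p = 0.0030, limma), a 3.54-fold fall. In MV4-11 the signals were 421.3, 386.2 and 368.3 with the combination and 571.6, 490.4 and 550.8 with DMSO. There too the groups did not overlap, but the change of -0.46 ± 0.13 was not called (adjusted p = 0.067). RAD54B, a relative of RAD54L, had 503.4, 240.6 and 385.2 with the combination and 798.3, 880.4 and 814.5 with DMSO in MOLM-14, a change of -1.21 ± 0.26 (adjusted p = 0.029). It was at 367.5, 472.1 and 433.5 with the combination and at 690.1, 712.3 and 818.8 with DMSO in MV4-11, a change of -0.81 ± 0.16 (adjusted p = 0.015). RAD54B fell in both lines without overlap, and 2 probe sets that it shares with another gene were left out.

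MND1 and PSMC3IP (HOP2) form a heterodimer that stimulates strand exchange and is best known from meiosis. MND1 was chosen by the study as part of its signature on these same arrays, so its direction here is not independent evidence. The paper also reports the MND1 change by quantitative PCR of mRNA, which is not among these data. The MV4-11 signals of MND1 were 848.1, 824.7 and 834.4 with the combination, against 2923, 2995 and 2645 with DMSO. The change of -1.77 ± 0.10 (adjusted p = 1e-04) was the largest fall among the 42 in that line, 3.41-fold. In MOLM-14 MND1 had 1542, 1102 and 1279 with the combination and 2982, 2751 and 2589 with DMSO, a change of -1.10 ± 0.13 (adjusted p = 0.0044). PSMC3IP had 425.3, 440.6 and 392.6 with the combination and 659.2, 588.3 and 604.5 with DMSO in MV4-11, a smaller fall of -0.56 ± 0.12 (adjusted p = 0.022). In MOLM-14 it had 345.8, 181.7 and 233.2 with the combination and 497.1, 374.6 and 523.2 with DMSO, and its change of -0.91 ± 0.24 was not called (adjusted p = 0.059). The groups of PSMC3IP did not overlap in either line. Its probe set is of the _x_at type, which can also bind related transcripts, and its other probe set changed by -0.82 in MOLM-14 (adjusted p = 0.042) and by -0.23 in MV4-11 (adjusted p = 0.62).

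RAD51AP1, which promotes strand pairing, fell in both lines. It had signals of 3083, 2613 and 2743 with the combination and 6751, 6679 and 5724 with DMSO in MOLM-14, a change of -1.18 ± 0.14 (adjusted p = 0.0040). In MV4-11 it had 1980, 1838 and 1869 with the combination and 3610, 4017 and 3785 with DMSO, a change of -1.004 ± 0.11 (adjusted p = 0.0011). The difference of the changes between the lines, -0.18 (95% interval -0.52 to 0.16), was not called (adjusted p = 0.65, limma). FIGNL1, a AAA ATPase, also fell in both, by 1.12 in MOLM-14 and 0.59 in MV4-11.

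BRCA1 with its partner BARD1 promotes resection, and BRIP1 is a helicase bound to BRCA1 that is also a Fanconi gene (FANCJ). BRIP1 had 557.8, 427.7 and 372.1 with the combination and 1460, 1328 and 1194 with DMSO in MOLM-14. Its change of -1.57 ± 0.18 (adjusted p = 0.0037) compares with -0.55 ± 0.14 in MV4-11 (adjusted p = 0.042), where signals were 506.6, 526.2 and 599.9 with the combination and 823.4, 772.8 and 792.4 with DMSO. BRCA1 had 743.1, 470.6 and 476.3 with the combination and 1379, 1493 and 1026 with DMSO in MOLM-14, a change of -1.22 ± 0.26 (adjusted p = 0.025). In MV4-11 BRCA1 had 610.8, 673.6 and 729.6 with the combination and 892.2, 925.6 and 973.7 with DMSO, a change of -0.47 ± 0.11 (adjusted p = 0.030). Both genes were thus lower on every treated array of each line than on any DMSO array. BARD1 fell by 0.75 in MOLM-14 (adjusted p = 0.010), with all 3 of its probe sets called. Its change of -0.49 in MV4-11 was not called (adjusted p = 0.052). Another BARD1 probe set was lower in MV4-11 (-0.74, adjusted p = 0.0044, limma), and the third was not called (-0.41). PALB2, the bridge between BRCA1 and BRCA2, was called in neither line (-0.34 in MOLM-14 and 0.13 in MV4-11).

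XRCC3, RAD51D, RAD51B, RAD51C and XRCC2, which take part in strand exchange, did not move as a group. XRCC3 had 131.6, 129.4 and 74.5 with the combination and 313.0, 307.9 and 214.9 with DMSO in MOLM-14, a change of -1.34 ± 0.28 (adjusted p = 0.025). In MV4-11 it had 242.2, 245.8 and 312.6 with the combination and 321.9, 239.9 and 233.4 with DMSO, which overlapped (0.02 ± 0.17, adjusted p = 0.97). RAD51D likewise fell by 0.76 in MOLM-14 (adjusted p = 0.0077) and changed by 0.01 in MV4-11 (adjusted p = 0.98). RAD51B went the other way in MV4-11, with dim signals of 155.6, 151.1 and 195.8 with the combination and 45.2, 111.8 and 67.3 with DMSO. The change of 1.25 ± 0.33 was just called (adjusted p = 0.045), and a second RAD51B probe set was also called (1.57, adjusted p = 0.048), while 2 others were not. In MOLM-14 RAD51B changed by 0.10 (adjusted p = 0.84). RAD51C and XRCC2 were called in neither line. RAD52, which anneals single strands, was dim and was called in neither line (0.69 in MOLM-14 and -0.05 in MV4-11).

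**Figure D2:**
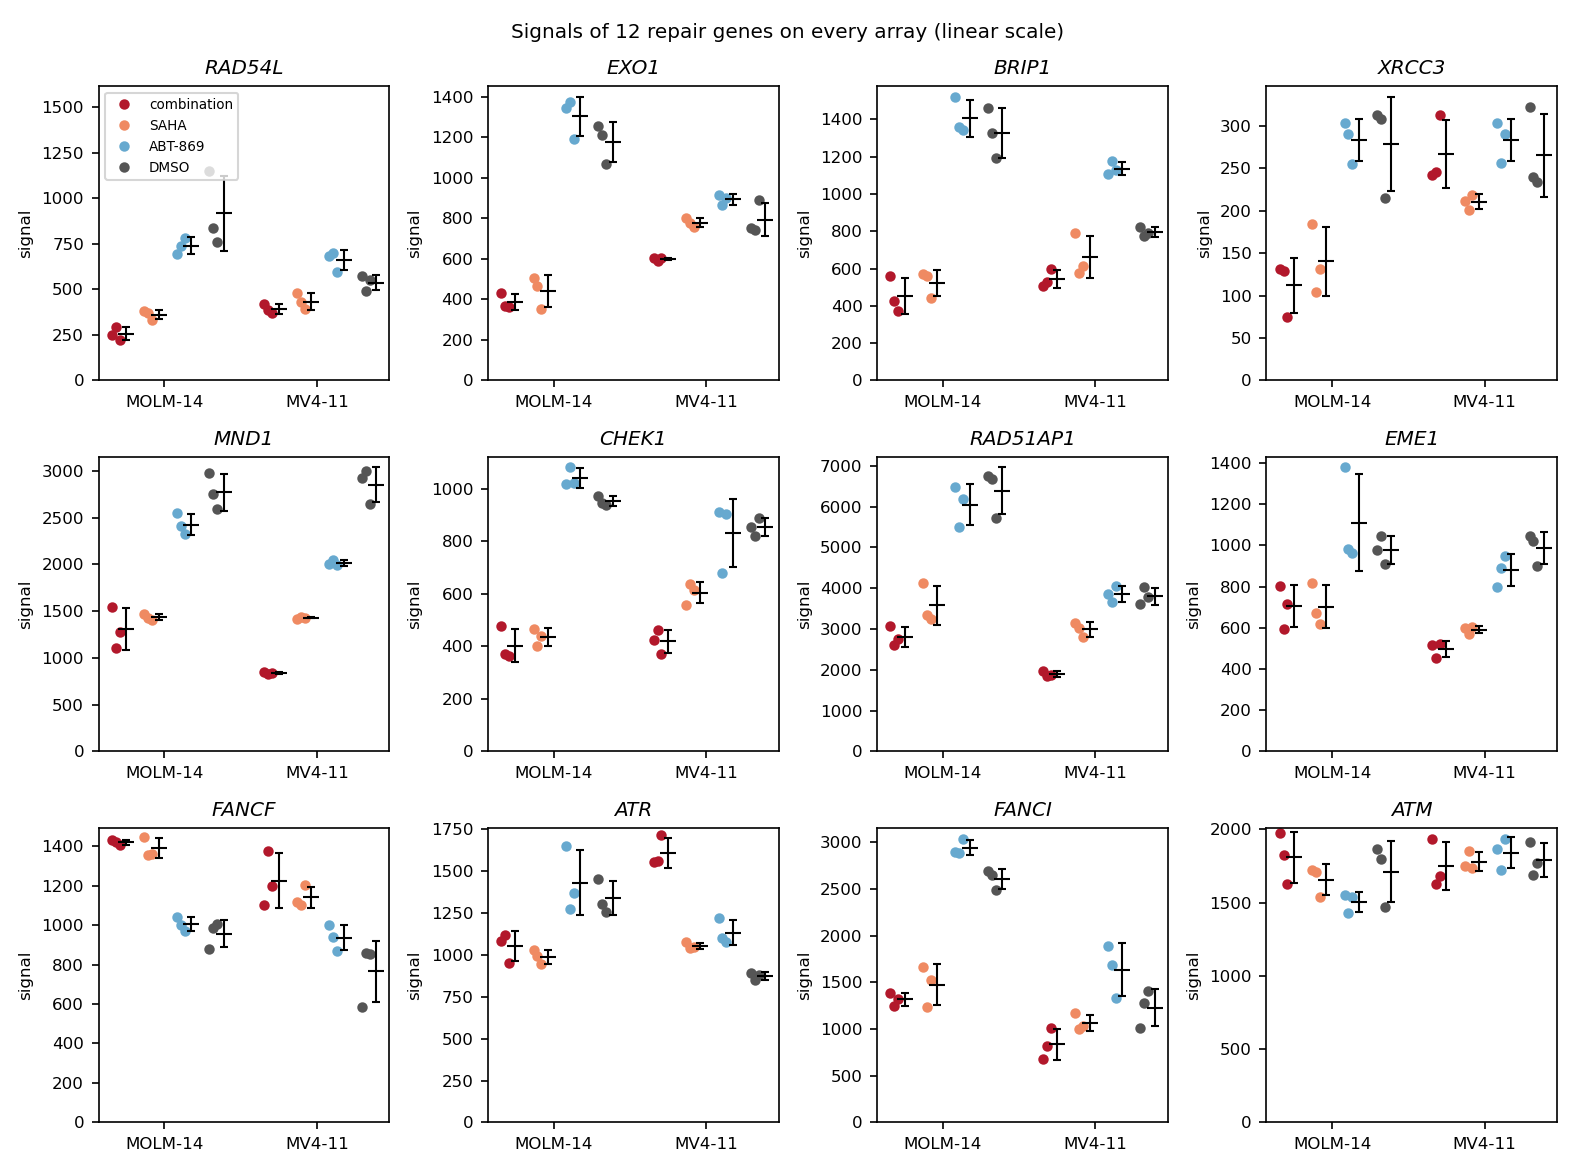
Linear signals of 12 repair genes on each array, 3 points per group, in MOLM-14 (left of each panel) and MV4-11 (right), in the order combination, SAHA, ABT-869 and DMSO. Bars show the mean and SD beside the points. The EXO1, CHEK1 and FANCI points of SAHA and of the combination overlap in MOLM-14, and the MND1 and RAD51AP1 points of the combination lie below those of SAHA in MV4-11.

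Of 4 measured end resection genes, 3 were lower in MOLM-14 and 1 in MV4-11, where 4.18% and 5.82% of all genes were lower. The difference between the lines was called for 1 of the 4, EXO1, and was lower in MOLM-14 for 5.63% of all genes. EXO1, the exonuclease that extends the single-stranded tail, had 430.7, 366.1 and 362.4 with the combination and 1256, 1211 and 1067 with DMSO in MOLM-14. This was a change of -1.61 ± 0.16 (adjusted p = 0.0031), or 3.05-fold. In MV4-11 it had 602.5, 592.3 and 605.6 with the combination and 751.3, 741.9 and 889.5 with DMSO, a change of -0.40 ± 0.11 that was not called (adjusted p = 0.059). Of the complex that starts resection, the nuclease MRE11 fell by its main probe set in both lines (-0.86 in MOLM-14 and -0.54 in MV4-11) and NBN in MOLM-14 (-0.72, adjusted p = 0.0076). In MOLM-14 a second MRE11 probe set was also lower (-0.93, adjusted p = 0.026, limma). The third, which was dim (mean log2 signal 4.34), was not called (1.26 ± 0.89). In MV4-11 neither of these other probe sets was called (0.53 and 0.33), so the fall there depended on the probe set. With the mean of its 3 probe sets the MRE11 change was -0.18 in MOLM-14 (adjusted p = 0.80) and turned to 0.105 in MV4-11 (adjusted p = 0.85). NBN was not called in MV4-11 by its main probe set (-0.29, adjusted p = 0.21), although 2 of its 5 probe sets were lower there. RAD50, the third subunit, was not called by its main probe set (-0.36 in MOLM-14 and -0.04 in MV4-11), and another of its probe sets was higher in both lines (0.68 in MOLM-14 and 0.54 in MV4-11).

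Junction processing genes unlink the joined molecules, by dissolution (BLM with TOP3A, RMI1 and RMI2) or by cutting (GEN1, MUS81 with EME1, and SLX4 as scaffold). In MOLM-14 BLM (-0.90), GEN1 (-0.82) and RMI1 (-0.63) were lower, and in MV4-11 EME1 and GEN1 (-0.47) were. EME1 had 518.1, 451.6 and 521.3 with the combination and 1045, 1020 and 901.3 with DMSO in MV4-11, a change of -0.99 ± 0.12 (adjusted p = 0.0019). In MOLM-14 it had 803.5, 596.7 and 716.5 with the combination and 980.2, 1047 and 909.5 with DMSO. Those groups did not overlap either, but the change of -0.48 ± 0.18 was not called (adjusted p = 0.19), and neither was the difference between the lines (0.51 ± 0.21, adjusted p = 0.19). MUS81, the partner of EME1, was called in neither line (-0.21 in MOLM-14 and -0.16 in MV4-11). TOP3A, RMI2 and SLX4 were not called either.

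Of 8 measured genes of the Fanconi core and crosslink sensing, 2 were lower and 1 was higher in MOLM-14, and 1 was lower and 1 was higher in MV4-11. Over all genes 4.18% were lower and 4.72% higher in MOLM-14, and 5.82% were lower and 7.1% higher in MV4-11. Among 8 genes, 1 call each way in MV4-11 does not stand apart from those shares. The ubiquitin ligase FANCL fell in MOLM-14 (-0.77, adjusted p = 0.028), and its conjugating enzyme UBE2T fell in both lines (-0.69 in MOLM-14 and -0.58 in MV4-11). FANCF, an adaptor of the core complex, rose instead. Its signals were 1432, 1421 and 1404 with the combination and 877.4, 985.6 and 1004 with DMSO in MOLM-14, a change of 0.57 ± 0.10 (adjusted p = 0.012). In MV4-11 they were 1103, 1376 and 1197 with the combination and 585.9, 857.5 and 853.1 with DMSO, a change of 0.69 ± 0.17 (adjusted p = 0.035). Every treated array was above every DMSO array, but the other FANCF probe set did not pass in either line (0.13 in MOLM-14 and 0.03 in MV4-11). FANCC, FANCE, FANCG, FANCM and FANCB were called in neither line.

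FANCI pairs with FANCD2, and the pair is the substrate of the core complex. FANCI was in the study's signature through another of its 3 probe sets (annotated in the study under an older name), so it too was selected on these arrays. Its main probe set had 1386, 1249 and 1318 with the combination and 2687, 2644 and 2488 with DMSO in MOLM-14, a change of -0.98 ± 0.13 (adjusted p = 0.0051). In MV4-11 it had 674.3, 820.8 and 1011 with the combination and 1011, 1273 and 1403 with DMSO, a change of -0.56 ± 0.20 that was not called (adjusted p = 0.13). The signature's probe set changed by -1.20 in MOLM-14 (adjusted p = 0.0037) and by -1.11 in MV4-11 (adjusted p = 0.0040). The third FANCI probe set was also lower in MV4-11 (-0.998, adjusted p = 0.016, limma) but was not called in MOLM-14 (-0.57, adjusted p = 0.13). The FANCI call therefore depended on the probe set in each line, and in MV4-11 the main probe set alone was not called. POLQ, the polymerase that joins ends left unrepaired by recombination, had 630.0, 487.7 and 527.9 with the combination and 902.0, 1024 and 1056 with DMSO in MOLM-14 (-0.86 ± 0.14, adjusted p = 0.0091). In MV4-11 POLQ had 646.3, 500.7 and 494.3 with the combination and 866.5, 775.6 and 859.2 with DMSO (-0.62 ± 0.15, adjusted p = 0.030).

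The damage kinases split. CHEK1, the effector kinase of the replication checkpoint, had 476.2, 369.4 and 363.9 with the combination and 973.3, 946.0 and 938.6 with DMSO in MOLM-14, a change of -1.25 ± 0.13 (adjusted p = 0.0031). In MV4-11 it had 422.9, 460.8 and 372.6 with the combination and 854.4, 818.2 and 888.7 with DMSO, a change of -1.03 ± 0.15 (adjusted p = 0.0037). CHEK1 was thus lower by over 2-fold in both lines, and in each line 3 of its 4 probe sets were called. ATR, the kinase that activates CHEK1 at stalled forks, had 1552, 1562 and 1714 with the combination and 893.5, 848.5 and 880.6 with DMSO in MV4-11. The change of 0.88 ± 0.11 (adjusted p = 0.0018) was shared by a second ATR probe set (0.88, adjusted p = 0.023). In MOLM-14 ATR had 1086, 1118 and 951.2 with the combination and 1453, 1304 and 1258 with DMSO, a change of -0.35 ± 0.13 that was not called (adjusted p = 0.18). ATM, the kinase of double-strand breaks, had 1973, 1822 and 1628 with the combination and 1864, 1798 and 1473 with DMSO in MOLM-14, and 1932, 1625 and 1681 with the combination and 1914, 1689 and 1770 with DMSO in MV4-11. The groups of ATM overlapped in both lines, and the changes were 0.08 (adjusted p = 0.82) and, in MV4-11, -0.04 (adjusted p = 0.89). CHEK2, the kinase that ATM activates, was not called either (-0.21 in MOLM-14 and -0.30 in MV4-11).

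The drugs alone were then compared with the combination. Shares of all genes are at an adjusted p under 0.05, and none is given for counts at an unadjusted p. In MOLM-14 SAHA alone lowered 17 of the 42 genes and raised FANCF, where 3.62% of all genes were lower and 4.2% were higher. All 17 were also among the 21 lower with the combination. The count of 18 was 8 and 7 without DMSO replicates 1 and 2, and 11, 7 and 8 without SAHA replicates 1, 2 and 3, and 10 with arrays centred on their medians. ABT-869 alone gave no call among the 42, where 0.0202% of all genes were called (none of the 42 had an unadjusted p under 0.05). Between the combination and SAHA no member was called (0% of all genes), with 5 lower and none higher at an unadjusted p under 0.05 and a median of -0.12, and 1 was lower with signals under 32 raised to 32 or with limma-trend. RAD54L had 381.1, 370.9 and 331.6 with SAHA in MOLM-14, above its 3 combination arrays, but the change of -0.50 ± 0.17 between combination and SAHA was not called (adjusted p = 0.42). EXO1 had 507.5, 464.0 and 355.1 with SAHA in MOLM-14, which overlapped the combination arrays.

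Against ABT-869, the combination lowered 25 genes and raised FANCF in MOLM-14, where 5.48% of all genes were lower and 6.52% were higher. EXO1 (-1.76), BRIP1 (-1.66) and RAD54L (-1.53) differed most. This count of 26 was 15 and 17 without ABT-869 replicates 1 and 3, and 15 without combination replicate 2 or 3. EXO1 had 1348, 1373 and 1195 with ABT-869 in MOLM-14, in the range of DMSO or above it.

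In MV4-11 SAHA alone lowered MND1 and EME1, where 1.52% of all genes were lower and 2.45% were higher. CHEK1 was not called by its main probe set (-0.50, adjusted p = 0.13, limma). However, 2 other CHEK1 probe sets were lower (-0.81, adjusted p = 0.026, and -0.63, adjusted p = 0.033). MND1 had 1422, 1437 and 1431 with SAHA (-0.995 ± 0.10 against DMSO, adjusted p = 0.0029), and EME1 had 597.2, 572.4 and 605.4 (-0.74 ± 0.12, adjusted p = 0.019). The EME1 call was lost without DMSO replicate 1 or 2 or any SAHA array, each leaving a count of 1. The MND1 call held under all 21 alternative settings. The count of 2 was 9 with signals under 32 raised to 32, 8 with limma-trend or without dim probe sets, and 6 in the fit over 24 arrays, and 1 with arrays centred on their medians. ABT-869 alone gave no call among the 42 (1.29% of all genes at an adjusted p), and 0 to 4 calls under other settings. At an unadjusted p under 0.05, 2 were lower and 5 higher, without a share over all genes at that p. MND1 had 2000, 2050 and 1998 with ABT-869, below all 3 DMSO arrays, a change of -0.50 ± 0.10 (adjusted p = 0.067).

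The combination differed from SAHA in MV4-11 for 3 genes, where 1% of all genes were lower and 0.263% were higher. MND1 was lower by 0.77 (adjusted p = 0.014), RAD51AP1 was lower by 0.66 (adjusted p = 0.038) and ATR was higher by 0.61 (adjusted p = 0.045). RAD51AP1 had 3153, 3030 and 2797 with SAHA in MV4-11, and ATR had 1076, 1042 and 1045, so that neither overlapped its combination arrays. The count of 3 was 0 or 1 without any 1 of the 12 arrays, and with arrays centred on their medians 1 gene was lower and 0 were higher. It was 9 with signals under 32 raised to 32, 8 without dim probe sets, 6 with limma-trend and 5 in the fit over 24 arrays. Against ABT-869, the combination lowered 16 and raised ATR in MV4-11, where 2.9% of all genes were lower and 3.14% were higher. MND1 (-1.27), BRIP1 (-1.07) and RAD51AP1 (-1.02) differed most. This count of 17 was 7 and 8 without ABT-869 replicates 1 and 2, 10 without SAHA replicate 2, and 9, 8 and 11 without combination replicates 1, 2 and 3. It was 7 with arrays centred on their medians and 0 without the 5 arrays that deviated most.

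Whether the combination exceeded the sum of both single effects was tested too, and that departure was called for none of the 42 in either line, where 0.00506% of all genes were called in MOLM-14 and 0.0455% in MV4-11. At an unadjusted p under 0.05, 2 were lower than the sum in MOLM-14 and 12 in MV4-11, and none was higher. The shares above are at an adjusted p, and none at the unadjusted p is given, so these counts cannot be read as an excess. In MV4-11, 3 were called lower with signals under 32 raised to 32, 2 with limma-trend and 1 without dim probe sets. The median departure was -0.19 in MOLM-14 and -0.28 in MV4-11, against 0.04 and 0.00 over all genes. These comparisons share their DMSO and single-drug arrays, so they are not independent of each other.

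The responses of the lines were compared in 1 fit over all 24 arrays. The change with the combination was lower in MOLM-14 than in MV4-11 for RAD54L, XRCC3, ATR, EXO1, BRIP1 and RAD51D, and higher for MND1, where 5.63% of all genes were lower and 4.88% were higher. RAD54L differed by -1.37 ± 0.21 (adjusted p = 0.00057), XRCC3 by -1.36 ± 0.33 (adjusted p = 0.016) and ATR by -1.23 ± 0.15 (adjusted p = 9.9e-05). EXO1 differed by -1.21, BRIP1 by -1.02, RAD51D by -0.77 and MND1 by 0.67. The RAD51D call was lost in 14 of 24 fits without 1 array, those without any MOLM-14 DMSO, SAHA or combination array, MV4-11 DMSO replicate 1 or 3, SAHA replicate 2 or combination replicate 1 or 2 (adjusted p up to 0.094), and the 6 others held. With arrays centred on their medians 6 were lower and 0 were higher, and without dim probe sets the count was 11. For SAHA alone, the response was lower in MOLM-14 for EXO1 (-1.40), BRIP1 (-1.07), RAD54L (-1.01) and ATR (-0.71), where 1.04% of all genes were lower and 1.02% were higher. Of these, EXO1 held without any 1 array, and ATR was lost in 10, RAD54L in 6 and BRIP1 in 5 of 24 such fits. The count of 4 was 1 without MOLM-14 DMSO replicate 1 or SAHA replicate 3 or MV4-11 DMSO replicate 2 or SAHA replicate 1, and 2 without MOLM-14 DMSO replicate 2 or SAHA replicate 2 or MV4-11 SAHA replicate 2. It was 7 with signals under 32 raised to 32, 9 with limma-trend or without dim probe sets, and 1 with arrays centred on their medians. The response to ABT-869 differed for none of the 42 (0.546% of all genes at an adjusted p). At an unadjusted p under 0.05, 4 were lower and 0 higher, without a share over all genes at that p.

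**Figure D3:**
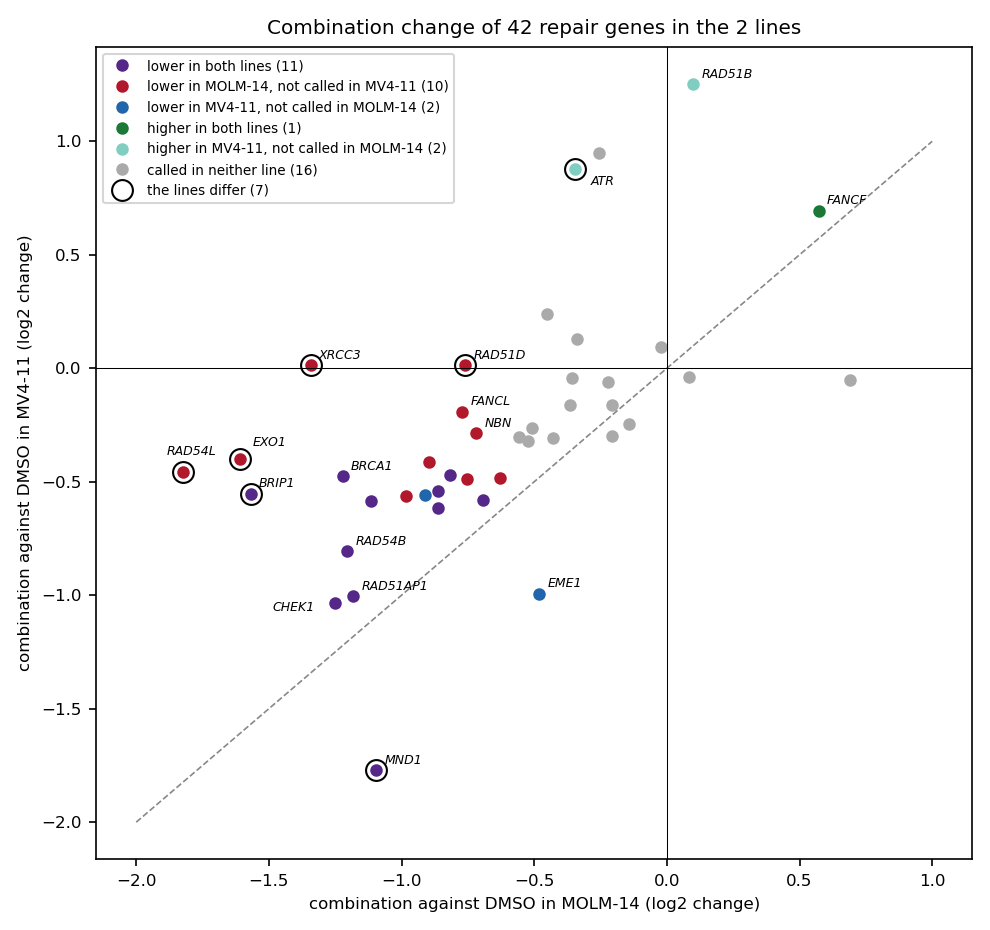
Log2 change with the combination against DMSO of 42 repair genes in MOLM-14 (x axis) and MV4-11 (y axis), n = 3 arrays per group, coloured by the calls in each line. Rings mark 7 genes whose changes differed between the lines, the dashed line marks equal change, and 10 genes in the crowded middle carry no name. MND1 lies below the dashed line at -1.10 and -1.77, and RAD54L lies far above it at -1.82 and -0.46.

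The lines already differed without drug. With DMSO, 12 of the 42 genes were higher in MOLM-14 than in MV4-11 and none was lower, where 8.19% of all genes were higher and 6.51% were lower. The median difference was 0.23 over the 42 genes, against -0.11 over all genes. With arrays centred on their medians, 20 were higher and none was lower, and the medians were 0.49 over the 42 genes and 0.15 over all genes. FANCI was at 2687, 2644 and 2488 in MOLM-14 and at 1011, 1273 and 1403 in MV4-11, a difference of 1.10 ± 0.16 (adjusted p = 0.00033). RAD54L was higher by 0.75, RAD51AP1 by 0.74, BRIP1 by 0.73, EXO1 by 0.57 and ATR by 0.61. FANCB, a dim gene, had 170.6, 121.2 and 112.4 in MOLM-14 and 33.4, 81.1 and 12 in MV4-11. Its difference of 2.05 ± 0.50 (adjusted p = 0.013) was 1.58 when signals under 32 were raised to 32, and its call was lost without MV4-11 DMSO replicate 3 or MOLM-14 DMSO replicate 1 (adjusted p up to 0.066). Without MOLM-14 DMSO replicate 1 the calls of BLM, FANCL and RMI1 were also lost, as they were without MV4-11 DMSO replicate 1. RMI1 was lost as well without DMSO replicate 2 of either line. MND1 (-0.04 ± 0.11) and CHEK1 (0.16 ± 0.13) were not called.

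Neighbouring pathways were counted from lists of their own. With the combination, 4.18% of all genes were lower and 4.72% higher in MOLM-14, and 5.82% were lower and 7.1% higher in MV4-11. Counts of 1 or 2 in these lists are too few to stand apart from those shares. Of 29 other recombination genes, 8 were lower and 2 higher in MOLM-14 and 2 were lower and 2 higher in MV4-11 with the combination than with DMSO. TONSL, which with its partner repairs broken forks, fell by 1.93 in MOLM-14, the nuclease DNA2 by 1.52 and the helicase MCM8 by 1.38. Of 16 other Fanconi and crosslink genes, 4 were lower in MOLM-14, among them UHRF1 (-1.50) and USP1 (-0.94), the enzyme that deubiquitinates FANCD2. In MV4-11 1 was lower and 2 were higher, FAAP100 by 0.88 and CENPX by 0.99. Of 18 checkpoint partners, 9 were lower in MOLM-14 and 4 in MV4-11. CLSPN, the adaptor between ATR and CHEK1, fell by 2.17 and TIMELESS by 1.80 in MOLM-14. The checkpoint partners lower in MV4-11 were CDC25C (-1.68), CDC25B (-0.99), TIMELESS (-0.88) and WEE1 (-0.85). Of 13 end joining genes, which repair breaks without a template, 1 was lower in MOLM-14 and 2 were higher in MV4-11. PRKDC, the kinase of that pathway, fell by 0.88 in MOLM-14 and rose by 0.45 in MV4-11 with the combination.

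Cell cycle genes moved beside the repair genes, in a different order in each line. For the combination, the shares over all genes given for the neighbouring pathways apply here too. In MOLM-14 all 19 measured S phase genes were lower with the combination (median -1.32) and 8 of 20 mitosis genes were (median -0.41). In MV4-11 6 of 19 S phase genes were lower and 1, CCNE2, was higher (median -0.32), while all 20 mitosis genes were lower (median -1.43). With SAHA alone in MOLM-14, 17 S phase genes were lower (median -1.07), where 3.62% of all genes were. With ABT-869 alone no S phase gene was lower in either line, but CCNE2 (0.999) and GINS3 (0.66) were higher in MV4-11. Over all genes, ABT-869 alone gave calls in either direction for 0.0202% in MOLM-14 and 1.29% in MV4-11. MCM4, of the helicase that unwinds replicating DNA, fell by 1.96 in MOLM-14, and HMMR, a spindle protein, fell by 2.44 in MV4-11. Among 21 E2F and pocket protein genes, 8 were lower and CDKN1A was higher in MOLM-14, with E2F1 at -1.32, E2F2 at -1.38 and MYBL2 at -2.23. In MV4-11 LIN9 was lower (-1.30) and TFDP2 (0.92) and E2F8 (0.63) were higher. Of the 8 myeloid markers, 1 was lower and 1 was higher in MOLM-14, and 2 were lower and 1 was higher in MV4-11. MPO, a marker of immature myeloid cells, fell by 2.87 in MOLM-14 and by 0.90 in MV4-11, and PTPRC fell by 0.49 in MV4-11. ITGAM, an integrin of mature myeloid cells, rose by 0.91 in MOLM-14, and the lysozyme gene LYZ rose by 0.53 in MV4-11. The part of these changes in the fall of the repair genes was not tested.

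**Figure D4:**
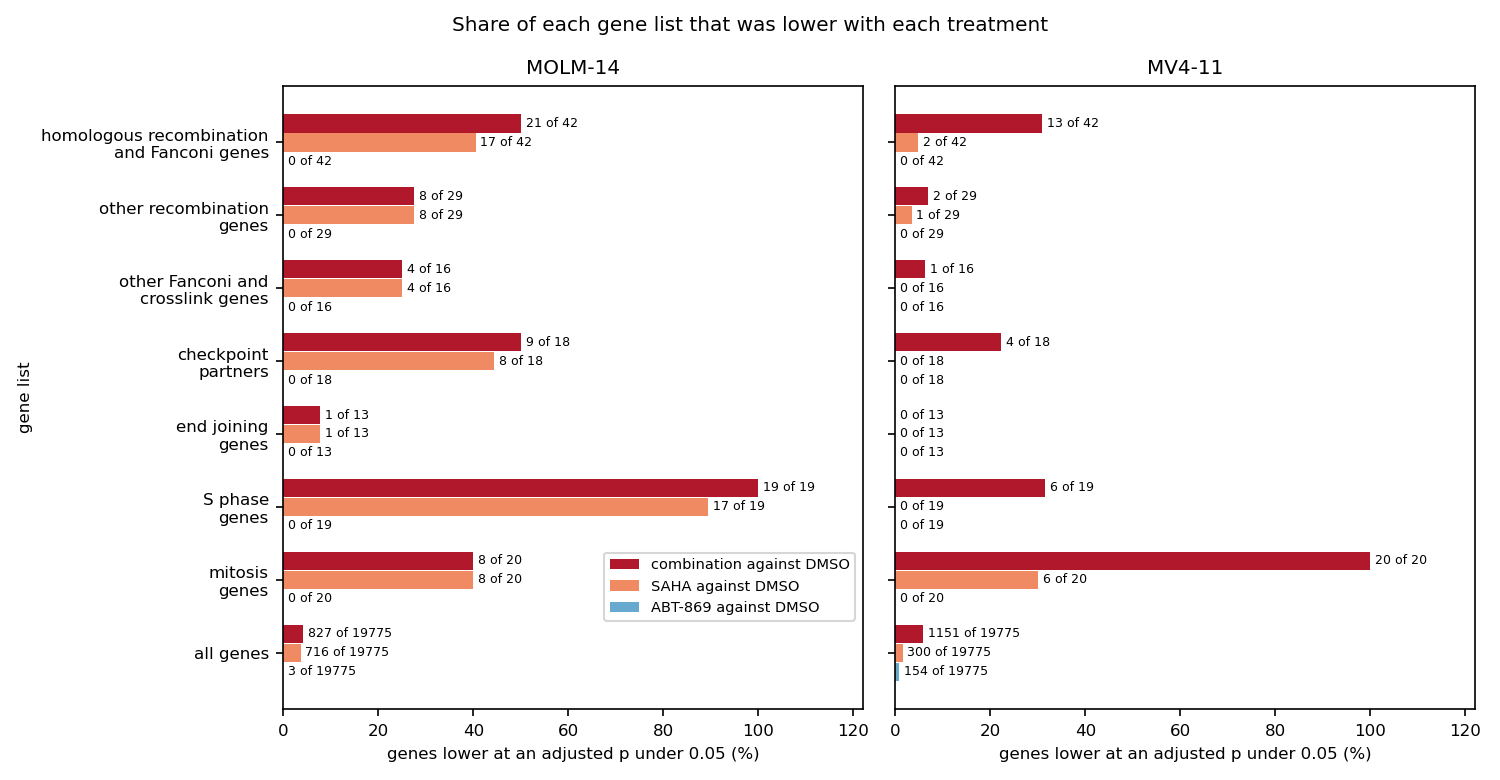
Share of each gene list (y axis) that was lower at an adjusted p under 0.05 (x axis, percent, from 0) with the combination, SAHA or ABT-869, each against DMSO, in MOLM-14 (left) and MV4-11 (right). Counts stand at the bars. The S phase bar reaches 19 of 19 in MOLM-14 and the mitosis bar 20 of 20 in MV4-11, with 21 and 13 of 42 homologous recombination and Fanconi genes.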

How the data were processed

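Expression was measured in 24 cultures on Affymetrix U133 Plus 2.0 arrays, 1 array per culture. The authors deposited linear signals (intensity), 1 per probe set, corrected for background, summarised and scaled to a common trimmed mean per array. Their software is not stated in these sources. Signals under 1 (0.209%) were raised to 1 before taking log2, and arrays were not normalized further. Of 54675 probe sets 62 controls were dropped. Genes were taken from GEO's platform annotation, in which 41091 probe sets named 1 gene.

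Linear models were fitted with limma 3.58.1 (R 4.3.3), per line over 12 arrays and 4 groups without a replicate block. Differences between lines came from 1 fit over 24 arrays. The fits were tested on simulated data. Alternatives were quantile normalization, centring on array medians, a floor of 32, no dim probe sets, limma-trend, the replicate block, 1 fit over 24 arrays, the mean of all probe sets of a gene and leaving out each array. Leaving out the 5 arrays that stood apart was chosen after seeing the data.

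Values per array are given for the 6 largest falls and 3 largest rises called with the combination in each line, the 3 largest called differences from each drug and between lines, and for MND1, PSMC3IP and FANCI. ATM was added after its values were seen. The genes, lists and this rule were chosen with earlier results of these data known. Replicates are biological per the labels, and the number of arrays limits the precision.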

Additional observations from a re-analysis of the deposited data

Results flagged for a closer look

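The combination changed 7 repair genes by different amounts in MOLM-14 and in MV4-11, by the test of the difference itself in the fit over 24 arrays (MOLM-14 minus MV4-11, log2 scale). These were RAD54L (-1.37), XRCC3 (-1.36), ATR (-1.23), EXO1 (-1.21), BRIP1 (-1.02), RAD51D (-0.77) and MND1 (0.67). SAHA alone changed EXO1 (-1.40), BRIP1 (-1.07), RAD54L (-1.01) and ATR (-0.71) by different amounts. No explanation for these differences was tested.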

How the results depend on the processing

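For the genes called with the combination against DMSO, 639 of the recomputed changes passed the threshold in the same direction, 158 kept the direction and no longer passed it, and 1 changed direction: MRE11 in MV4-11, at 0.105 with the mean of all probe sets of a gene. Centring arrays on their medians left 10 members called for SAHA against DMSO in MOLM-14 and, in MV4-11, 6 for the combination against DMSO, 7 against ABT-869, 1 against SAHA and 1 for SAHA against DMSO. It left 1 for the SAHA response between lines and gave 20 for the DMSO level. It moved the median of all genes by over 0.1, for example to 0.15 from -0.11 for the DMSO level.

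A floor of 32 gave 1 call for the combination against SAHA in MOLM-14 and, in MV4-11, 9 against SAHA, 9 for SAHA, 3 for ABT-869 and 3 for the departure, and 7 for the SAHA response. Limma-trend gave 1, 6, 8, 4, 2 and 9 for the same results. Without dim probe sets there were 8 for the combination against SAHA, 8 for SAHA, 4 for ABT-869 and 1 for the departure in MV4-11, 9 for the SAHA response and 11 for the combination response. The fit over 24 arrays gave 5 for the combination against SAHA, 6 for SAHA and 2 for ABT-869 in MV4-11, and the mean of all probe sets 1 for ABT-869.

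The replicate numbers paired the samples weakly at most. Deviations of same-numbered arrays correlated at -0.19 to 0.328, over 0.1 in 7 of 36 pairs. In MOLM-14 the median was 0.064 for same-numbered and -0.02 for other pairs, and in MV4-11 it was -0.014 and 0.001. Of the arrays, 7 of 12 in MOLM-14 and 2 of 12 in MV4-11 correlated best with their own number. With the replicate block MV4-11 gave 6 calls for the combination against DMSO, 9 against ABT-869, 0 against SAHA and 1 for SAHA. Without the 5 arrays that stood apart, which leaves 1 combination array in MV4-11 that is assumed to vary like the rest, these were 2, 0, 0 and 1.

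Leaving out each array in turn gave 14 to 23 (combination against DMSO), 15 to 25 (against ABT-869) and 7 to 18 (SAHA) in MOLM-14, and 6 to 13, 7 to 13, 0 to 1 (against SAHA) and 1 to 2 (SAHA) in MV4-11. It gave 6 to 9 for the combination response, 1 to 4 for the SAHA response and 8 to 13 for the DMSO level. Causes were not tested, beyond the fewer arrays or probe sets fitted. Signals near or below 32, as for FANCB, limit precision.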
